A study of Mus musculus with 6 samples.

Results

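Histone deacetylases are the enzymes that remove acetyl groups from lysines of histones and of other proteins. The 10 genes described here, called the family below, are zinc-dependent deacetylases. Of class I they are Hdac1, Hdac2, Hdac3 and Hdac8, and of class IIa Hdac4, Hdac5, Hdac7 and Hdac9. Hdac6 is of class IIb and Hdac11 of class IV. Each was taken from the probe sets that the array annotation gives to exactly 1 gene symbol, and where a gene had several, the probe set with the highest mean of the 6 arrays was kept. All 10 were found, among 19938 genes measured. Hdac10 is not in this set, so nothing is said of it here. Expression was measured in mouse embryonic stem (ES) cells, cultured cells of the early embryo, with 3 arrays of wild-type cells (WT, replicates 1, 2 and 3) and 3 arrays of Satb1-/- cells (replicates 1-1, 1-2 and 2-1, which the labels number as clones). Both groups carried a hygromycin resistance and thymidine kinase reporter in the Oct4 locus. They were grown with LIF and 15% serum for 3 days on irradiated feeder cells, under hygromycin, which keeps cells that express Oct4. Feeder cells were then reduced by letting them settle before total RNA was taken. Nothing in the labels ties the arrays of 1 group to separate cultures. The meaning of the first clone number is not given either, so Satb1-/- replicates 1-1 and 1-2 may share an origin. With these averaged as 1 sample, 90 higher and 27 lower genes passed by limma in place of 184 and 95, Satb1 itself had an adjusted p of 0.118, and 0 of the 10 deacetylase genes passed. The p-values therefore measure only the spread between these samples, which may be technical.

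Class I enzymes are mostly nuclear and act inside corepressor complexes. Hdac1 and Hdac2 share the Sin3, NuRD, CoREST and MiDAC complexes, and Hdac3 is the catalytic subunit of the NCoR and SMRT complex. Class IIa enzymes have weak catalytic activity, bind MEF2 transcription factors, and leave the nucleus on 14-3-3 proteins when kinases phosphorylate them. Hdac6 is a cytoplasmic deacetylase of tubulin. SATB1 is a chromatin organiser that binds AT-rich DNA and is known to recruit HDAC1 and NuRD subunits to its targets in thymocytes. The comparison asks whether the RNA of these enzymes differed between ES cells with and without Satb1.

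The promoters of the family differ widely in base composition, and 3 of them are printed to show that range beside the gene with the largest difference. The table of RefSeq promoters used here (GRCm38.p6) gave 12 windows of 300 bases, from 250 bases before to 50 after a start site, for 8 of the 10 genes, all but Hdac1 and Hdac3. Of these windows, the Hdac2 window held the most CG dinucleotides, 36, with 69.7% G and C. The Hdac6 window held 20 and 62.0%. The windows of Hdac9 were the poorest, with 3 and 0 CG dinucleotides and 45.3% and 44.0% G and C. Over all 32851 windows the median was 7 CG dinucleotides and 52.7% G and C. Hdac7 had 4 windows, whose CG counts ran from 5 to 35. The 250 bases before the start site are given 5′ to 3′, with CG dinucleotides in capitals. These shorter stretches hold 27 CG dinucleotides for Hdac2, 17 for Hdac6 and 0 for Hdac9.
Hdac2, chr10:36974294-36974543, plus strand: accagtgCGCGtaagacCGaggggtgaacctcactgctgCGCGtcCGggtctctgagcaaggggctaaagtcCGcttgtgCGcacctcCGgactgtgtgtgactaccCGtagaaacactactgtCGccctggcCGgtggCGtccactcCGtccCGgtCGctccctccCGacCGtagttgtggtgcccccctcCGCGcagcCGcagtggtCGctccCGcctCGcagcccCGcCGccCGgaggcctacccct
Hdac6, chrX:7947890-7948139, minus strand: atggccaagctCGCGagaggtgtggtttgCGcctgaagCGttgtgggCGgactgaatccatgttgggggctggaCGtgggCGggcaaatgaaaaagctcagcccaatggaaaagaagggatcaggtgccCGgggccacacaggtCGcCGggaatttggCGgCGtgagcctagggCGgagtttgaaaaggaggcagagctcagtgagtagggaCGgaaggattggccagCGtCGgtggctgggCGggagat
Hdac9, chr12:34917096-34917345, minus strand: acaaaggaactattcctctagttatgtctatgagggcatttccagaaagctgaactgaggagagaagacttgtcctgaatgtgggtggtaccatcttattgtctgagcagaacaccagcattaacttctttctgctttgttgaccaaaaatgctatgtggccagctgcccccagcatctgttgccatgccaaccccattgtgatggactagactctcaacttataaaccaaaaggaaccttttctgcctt
These are descriptions of sequence, and no binding or methylation was measured here.

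None of the 10 histone deacetylase genes passed the test for a difference between Satb1-/- and WT cells. By limma, 0 of 10 passed an adjusted p of 0.05 (Benjamini-Hochberg over all 19938 genes), where 1.4% of all genes passed (0.923% higher and 0.476% lower in Satb1-/-). At an unadjusted limma p under 0.05 the count was also 0 of 10, against 10.5% of all genes. For 9 of the 10, the difference was smaller than 0.2 on the log2 scale, as it was for 78.6% of all genes. The differences, Satb1-/- minus WT, ran from -0.18 for Hdac7 to 0.35 for Hdac6, with 8 positive and 2 negative. Over all genes, 9679 were positive and 10259 negative. The median of the 10 members was 0.10, against -0.00 over all genes. The 95% confidence intervals, not adjusted for the number of genes, put bounds on what could have been missed: a rise above 1.63-fold for Hdac6, above 1.48-fold for Hdac3 and above 1.36-fold for the other 8, or a fall beyond 1.32-fold for Hdac7 and beyond 1.28-fold for the rest, lies outside them. RMA compresses differences of dim probe sets, so these bounds are less sure for Hdac8, Hdac9 and Hdac11, whose mean levels lay below that of the median gene (percentiles 48.5, 39.4 and 49.8). The bounds also take the 3 Satb1-/- arrays as separate samples. With replicates 1-1 and 1-2 averaged as 1 sample, the upper limit rose for every member. In log2 units it went from 0.44 to 0.50 for Hdac1, from 0.43 to 0.50 for Hdac2 and from 0.56 to 0.66 for Hdac3. The lower limit for Hdac7 went from -0.40 to -0.45. Because RNA came from whole cultures, fewer cells of a type and less RNA per cell cannot be told apart.

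**Figure D1:**
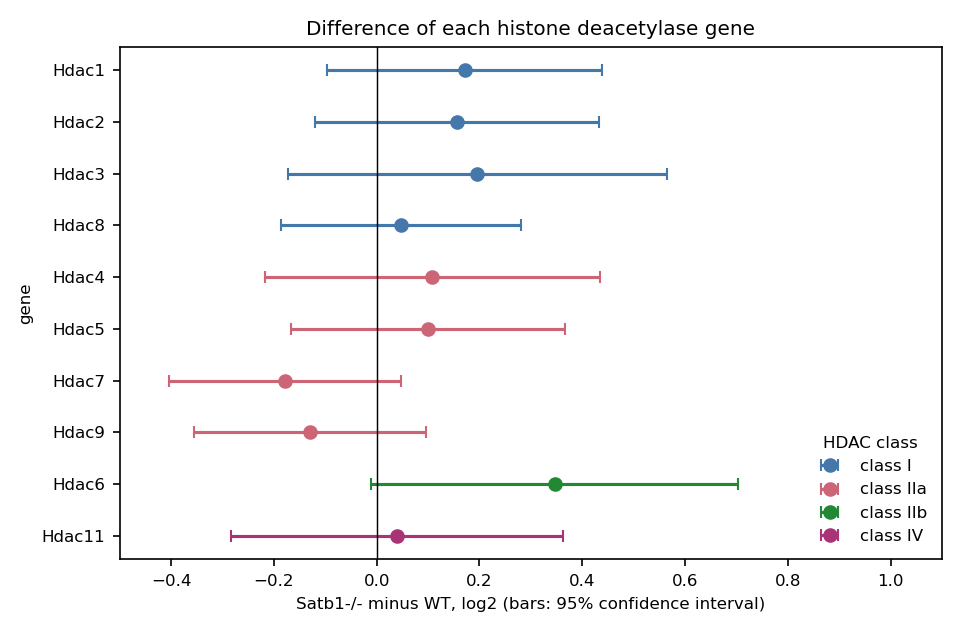
Difference in log2 expression, Satb1-/- minus WT, for the 10 histone deacetylase genes (points, coloured by class; bars are 95% confidence intervals from limma, n = 3 arrays per group). All 10 intervals include 0, and that of Hdac6, from -0.01 to 0.70, comes closest to leaving it out.

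The arrays themselves set how finely these genes could be compared. Pearson's r over all probe sets was 0.976 to 0.986 within WT, 0.989 to 0.991 within Satb1-/- and 0.981 to 0.987 between the groups. On the first principal component (36.1% of the variance) WT replicate 1 lay farthest out, at -26.7 against -10.6 and -3.69 for the other WT arrays and 12.7 to 15.5 for Satb1-/-. WT replicate 3 stood apart from the other 5 arrays on the second principal component (29.4% of the variance), with a score of -29.3 against 0.51 to 13.1. The targeted gene, Satb1, read 5.12, 4.99 and 5.31 in WT and 4.38, 4.47 and 4.57 in Satb1-/- (difference -0.67, SE 0.12, limma adjusted p = 0.022). The place of its probes relative to the deletion was not known, so this value does not check the knockout. Satb1 missed the threshold without WT replicate 1 or without any 1 Satb1-/- array (limma adjusted p = 0.0623 to 0.128). Pluripotency markers were bright in both groups, Pou5f1 (Oct4) at 10.22 and 9.83 and Sox2 at 9.94 and 10.24, as group means in WT and Satb1-/-.

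Levels of different genes come from different probes and cannot be ranked against each other, so each gene is described only across arrays, beginning with class I. Hdac1, the deacetylase that SATB1 is known to bind, read 10.11, 10.08 and 10.43 in WT and 10.41, 10.31 and 10.42 in Satb1-/-. WT replicates 1 and 2 lay below all Satb1-/- arrays, but WT replicate 3 was the highest of the 6. The difference was 0.17 (SE 0.12, limma adjusted p = 0.74). A second Hdac1 probe set, annotated with the same 4 transcript accessions, read 9.94, 9.91 and 10.25 in WT and 10.19, 10.14 and 10.22 in Satb1-/-, the same order of arrays within WT. RefSeq also lists a pseudogene copy, Hdac1-ps, on chromosome 17, and signal from the gene and from such a copy could not be separated.

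Hdac2, the close paralog of Hdac1 in the same complexes, read 9.34, 9.44 and 9.62 in WT and 9.66, 9.44 and 9.77 in Satb1-/-. The groups overlapped, with Satb1-/- replicate 1-2 level with WT replicate 2. The difference was 0.16 (SE 0.12, limma adjusted p = 0.789).

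Hdac3, the NCoR and SMRT deacetylase, read 7.65, 7.93 and 8.38 in WT and 8.20, 8.10 and 8.24 in Satb1-/-. It had the widest WT spread of the family, a range of 0.74 against 0.14 within Satb1-/-. WT replicate 3 was the highest of all 6 arrays and WT replicate 1 the lowest, so that the Satb1-/- arrays lay inside the WT range. The difference was 0.20 (SE 0.17, limma adjusted p = 0.812).

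Hdac8, a class I enzyme that deacetylates the cohesin subunit SMC3, read 4.97, 4.90 and 4.96 in WT and 4.86, 5.05 and 5.06 in Satb1-/-. Both groups were low and overlapped, and their means lay 0.05 apart (SE 0.11, limma adjusted p = 0.953). All 4 class I genes had positive differences, with a median of 0.16. WT replicate 3 pulled the WT means of Hdac1 and Hdac3 upward. Without it the differences were 0.28 for Hdac1 (95% interval 0.04 to 0.52, limma adjusted p = 0.232), 0.23 for Hdac2 (adjusted p = 0.408) and 0.39 for Hdac3 (95% interval 0.12 to 0.66, adjusted p = 0.143), and none passed the threshold. Leaving out another WT array made them smaller. Without WT replicate 1 the differences were 0.12 for Hdac1, 0.10 for Hdac2 and 0.03 for Hdac3. Without WT replicate 2 they were 0.11, 0.14 and 0.17, and all of these intervals included 0.

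**Figure D2:**
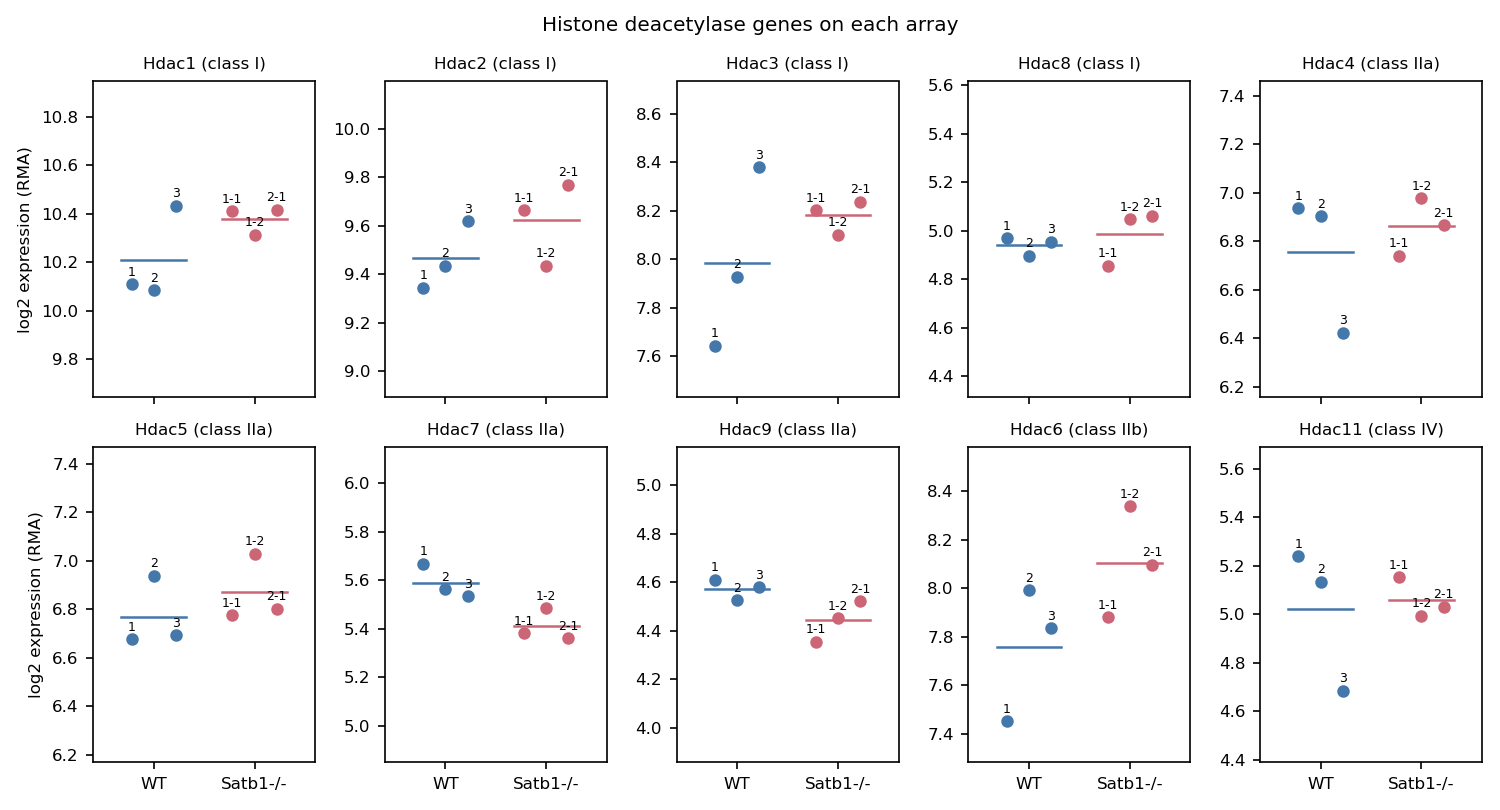
Log2 expression of the 10 histone deacetylase genes on each of the 3 WT (blue) and 3 Satb1-/- (red) arrays, each panel spanning the same 1.3 log2 units; numbers are replicates and lines are group means. The groups are separate for Hdac7 and Hdac9 only, and WT replicate 3 is the highest of 6 for Hdac1 and Hdac3 and the lowest for Hdac4 and Hdac11.

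Class IIa did not move one way. Hdac4 and Hdac5 had positive differences and Hdac7 and Hdac9 negative ones, and the median of the class was -0.01. Hdac4, a repressor of MEF2 targets in muscle and bone, read 6.93, 6.90 and 6.42 in WT and 6.74, 6.98 and 6.87 in Satb1-/-. WT replicate 3 was the lowest of the 6 arrays, opposite to its place for Hdac1 and Hdac3. The difference was 0.11 (SE 0.15, limma adjusted p = 0.91), and -0.06 without WT replicate 3. A second Hdac4 probe set showed the same low value in WT replicate 3 (5.62, 5.85 and 5.38 in WT, against 5.67, 5.69 and 5.77 in Satb1-/-). Hdac5, its relative in heart and muscle, read 6.68, 6.94 and 6.69 in WT and 6.78, 7.03 and 6.80 in Satb1-/-. The ranges overlapped, and the difference was 0.10 (SE 0.12, limma adjusted p = 0.887).

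Hdac7, a class IIa enzyme of thymocytes and endothelium, was 1 of 2 members whose groups did not overlap. It read 5.67, 5.56 and 5.53 in WT and 5.38, 5.49 and 5.36 in Satb1-/-, so every Satb1-/- array lay below every WT array. The gap was small: 0.05 between WT replicate 3 and Satb1-/- replicate 1-2. The difference was -0.18 (SE 0.10, limma adjusted p = 0.637). Hdac9, whose shorter form lacks the catalytic domain, read 4.61, 4.53 and 4.58 in WT and 4.35, 4.45 and 4.52 in Satb1-/-. Its groups were separated by 0.0054, at a low signal, and the difference was -0.13 (SE 0.10, limma adjusted p = 0.783). Of all genes, 15.1% had groups that did not overlap (8.18% higher and 6.97% lower in Satb1-/-). The 2 of 10 members were both lower, and so small a count was not tested against these shares.

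Hdac6, the tubulin deacetylase of class IIb, had the largest difference of the family. It read 7.45, 7.99 and 7.83 in WT and 7.88, 8.34 and 8.10 in Satb1-/-. WT replicate 1 was the lowest, Satb1-/- replicate 1-2 the highest, and WT replicate 2 lay above Satb1-/- replicate 1-1. The difference was 0.35 (a fold of 1.27, SE 0.16, limma adjusted p = 0.499), at percentile 95.7 of the differences of all genes. Without WT replicate 1 it was 0.19 (limma adjusted p = 0.773). Without WT replicate 2 it was 0.46, with a 95% interval of 0.08 to 0.84 and an adjusted p of 0.305. The genes whose profile over the 6 arrays lay closest to that of Hdac6, by root mean square distance of mean-centred log2 values, were Fthl17f (0.051), a ferritin heavy chain-like gene of the X chromosome, Knstrn (0.054), which encodes a spindle protein, and Pltp (0.058), which encodes a phospholipid transfer protein. These 3 were picked by that profile, so differences near that of Hdac6 were fixed in advance. The differences were 0.35, 0.37 and 0.36 (limma adjusted p = 0.513, 0.443 and 0.558), and none passed.

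Hdac11, the only class IV enzyme, read 5.24, 5.13 and 4.69 in WT and 5.15, 4.99 and 5.03 in Satb1-/-. WT replicate 3 was again the lowest and WT replicate 1 the highest, so the Satb1-/- arrays lay within the WT range. The difference was 0.04 (SE 0.15, limma adjusted p = 0.974), and -0.13 without WT replicate 3. Across the family, 7 of 10 genes had the larger SD in WT, as did 68.4% of all genes.

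On some chromosomes, neighbouring genes differed together between these cells, so the genes beside each deacetylase gene were read as well. The members lie on chromosomes 1, 4, 6, 10, 11, 12, 15, 18 and X, with Hdac6 and Hdac8 both on X. The 20 nearest measured genes of each had median differences between -0.07 (Hdac11) and 0.03 (Hdac9). Of these neighbours 0 changed beside 9 of the members, and 1 of 20 changed beside Hdac6. None lies on chromosome 8, whose 955 measured genes had a median difference of -0.19, with 87.4% of them negative. Hdac11 lies on chromosome 6, which held 74 higher and 20 lower genes among 1099 measured; the 20 genes nearest to Hdac11 were not among them.

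Among the partners of the deacetylases, 3 genes of 97 measured in 12 lists changed, 1 higher and 2 lower in Satb1-/-. The lists were chosen with earlier results of these data known, and their counts are read against the 1.4% of all genes. The median over the partner genes was 0.01. Of the changed genes, Sinhcaf and Brd7 lie in regions where neighbouring genes were lower too.

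**Figure D3:**
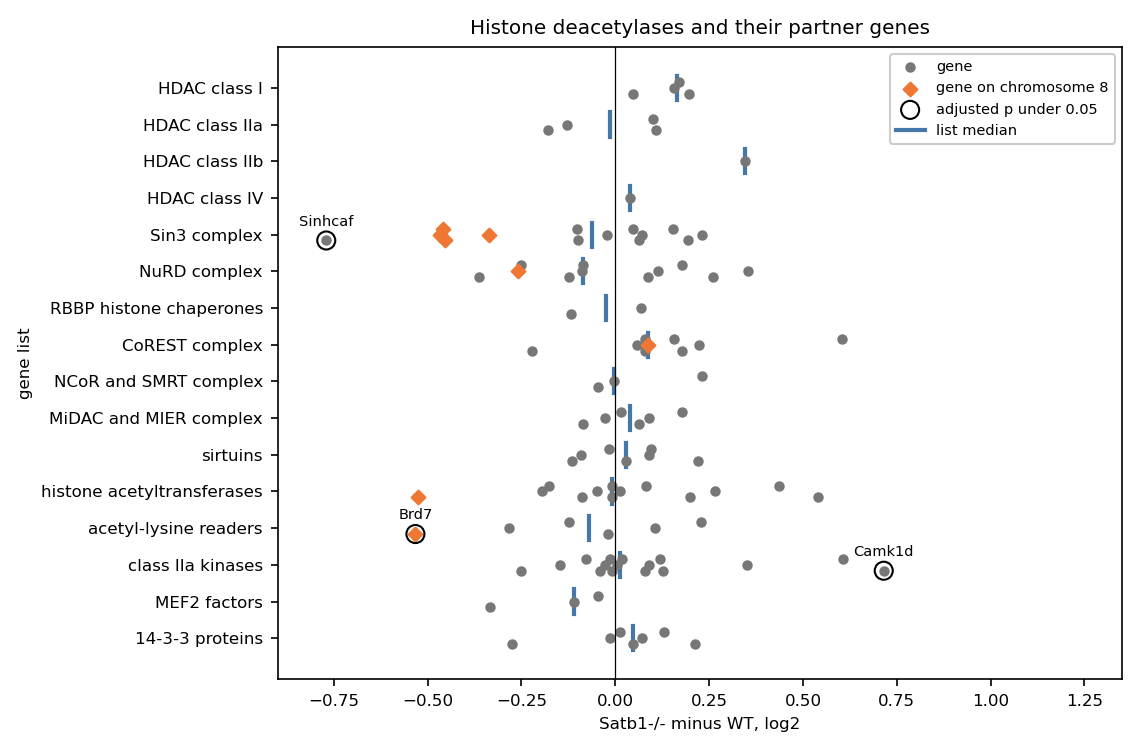
Difference in log2 expression, Satb1-/- minus WT, of every measured gene of the deacetylase classes and 12 partner lists (grey points; orange diamonds lie on chromosome 8; black circles have a limma adjusted p under 0.05; blue bars are list medians). The 3 circled genes are Sinhcaf, Brd7 and Camk1d, and 4 of the 5 lowest members of the Sin3 list lie on chromosome 8.

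In the Sin3 complex, a scaffold that carries Hdac1 and Hdac2, 1 of 14 measured genes fell and 0 rose, with a list median of -0.06. The gene that fell was Sinhcaf, a subunit of the Sin3 complex in ES cells. It read 10.67, 10.87 and 10.67 in WT and 10.04, 9.91 and 9.94 in Satb1-/-, with no overlap. The drop came to -0.77 with SE 0.11 (limma adjusted p = 0.00579). The gene lies near the end of chromosome 6, where 14 of its 15 nearest measured genes were negative, with a median of -0.57, and 7 of them changed. Sinhcaf missed the threshold narrowly without Satb1-/- replicate 1-2 or 2-1 (limma adjusted p = 0.0502 and 0.0531).

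Sin3b, a scaffold subunit, had the second largest difference of that list, -0.47 (limma adjusted p = 0.192), and 19 of its 20 neighbours on chromosome 8 were negative as well. Ing1 (-0.46, adjusted p = 0.054), Sap30 (-0.45, adjusted p = 0.105) and Ing2 (-0.34, adjusted p = 0.241), named after their values were seen, also lie on chromosome 8. In all, 7 of the 8 partner genes on chromosome 8 were negative, as were 87.4% of the 955 measured genes of that chromosome. The median was -0.46 for these partner genes, against -0.19 for all genes of that chromosome. These medians were not matched for level, and RMA compresses differences of dim probe sets. The part of chromosome 8 in the differences of its partner genes was not tested. Sin3a, the other scaffold, also named after its value was seen, read 0.15 on the difference scale.

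The remaining corepressor complexes held 0 changed genes by limma. In NuRD, which joins Hdac1 and Hdac2 to a chromatin remodeller, 0 of 11 passed, with a median of -0.08. Its largest differences were those of the remodeller genes Chd5 (-0.36, adjusted p = 0.367) and Chd3 (0.35, adjusted p = 0.314). The histone chaperones Rbbp4 and Rbbp7, shared by Sin3 and NuRD, differed by 0.07 and -0.12. In CoREST, which pairs Hdac1 and Hdac2 with the demethylase Kdm1a, 8 of 9 genes were positive and 0 passed (median 0.09). Its subunit Rcor2 read 7.42, 7.46 and 8.06 in WT and 8.26, 8.14 and 8.35 in Satb1-/-. All Satb1-/- arrays lay above all WT arrays, with WT replicate 3 close beneath them (difference 0.60, limma adjusted p = 0.134). Zmym3 differed by 0.22. Of the NCoR and SMRT list, 3 of 5 genes were measured, and Tbl1xr1, an exchange factor of that complex, differed by 0.23 (adjusted p = 0.561) and Tbl1x by -0.04. In the MiDAC and MIER list 0 of 6 passed, with Mier3 at 0.18 and Mier2 at 0.09.

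Among the sirtuins, histone acetyltransferases and acetyl-lysine readers, 1 gene changed. Of the 7 sirtuins, a family of NAD-dependent enzymes, 0 passed, and the differences ran from -0.12 for Sirt1 to 0.22 for Sirt5. Of 13 histone acetyltransferases 0 passed, with a median of -0.01. Kat2b (PCAF) read 5.76, 5.87 and 6.45 in WT and 6.58, 6.46 and 6.65 in Satb1-/-, a difference of 0.54 (limma adjusted p = 0.206), with WT replicate 3 just below the Satb1-/- arrays. Kat6a (MOZ) had a difference of -0.52 (adjusted p = 0.101) and lies on chromosome 8. Among 6 measured acetyl-lysine readers, the bromodomain gene Brd7 fell. It read 8.35, 8.42 and 8.51 in WT and 7.93, 7.79 and 7.96 in Satb1-/-. The groups did not overlap and differed by -0.53 with SE 0.11 (limma adjusted p = 0.0375). Brd7 lies on chromosome 8, and 16 of its 20 neighbours were negative with a median of -0.22. Brd7 missed the threshold without any 1 array other than WT replicate 3 (limma adjusted p = 0.0574 to 0.198) and with arrays shifted to a common median (adjusted p = 0.0667). Brd2 differed by -0.28 (adjusted p = 0.583).

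The genes that act on class IIa enzymes included the 1 partner that rose. Of 16 kinases known or related to those that phosphorylate class IIa enzymes, Camk1d, a calcium and calmodulin-dependent kinase, rose and 0 fell. It read 5.33, 5.75 and 5.67 in WT and 6.10, 6.39 and 6.41 in Satb1-/-, with no overlap. Satb1-/- exceeded WT by 0.72 with SE 0.14 (limma adjusted p = 0.0358). Its 20 neighbours on chromosome 2 had a median of 0.07, and 0 of them changed. Camk1d missed the threshold without WT replicate 1 or any 1 Satb1-/- array (limma adjusted p = 0.0669 to 0.209) and with arrays shifted to a common median (adjusted p = 0.0542). Sik1, a salt-inducible kinase, read 7.48, 8.14 and 7.82 in WT and 8.35, 8.54 and 8.36 in Satb1-/-, a difference of 0.61 (limma adjusted p = 0.111). Of 3 measured MEF2 factors, which class IIa enzymes repress, 0 passed and all 3 were negative, Mef2d at -0.33 (adjusted p = 0.2) and Mef2a at -0.11. Of the 7 genes of 14-3-3 proteins 0 passed; Ywhah differed by -0.28 (adjusted p = 0.422) and Ywhag by 0.21.

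Markers of other cells were read beside the family. All 14 measured feeder fibroblast genes were positive and 0 passed, with a median difference of 0.20 against 0.10 for the deacetylases. Their mean log2 level ran from 6.85 to 7.15 in WT, lowest in replicate 3, and from 7.13 to 7.41 in Satb1-/-. Trophectoderm markers, of 8 genes, had 2 that fell, the keratins Krt8 (-2.72) and Krt18 (-2.48). Their mean level ran from 5.98 to 6.55 in WT, highest in replicate 3, and from 5.48 to 5.66 in Satb1-/-. Of the trophectoderm genes 5 were negative and 3 positive (median -0.20), among the latter Eomes (0.55, limma adjusted p = 0.068) and Tfap2c (0.33), whose Satb1-/- arrays all lay above the WT arrays. Primitive endoderm markers ran from 4.97 to 5.12 in WT and from 5.17 to 5.31 in Satb1-/-, and 1 of 8 rose, Lama1 (1.53), and 0 fell. That list's median difference was 0.01, with 4 genes positive and 4 negative. Muscle markers, of a tissue where class IIa enzymes are known to act, ran from 4.62 to 4.87 and from 4.49 to 4.54, with 0 of 7 changed. Of the 7, 6 were negative, with a median of -0.22, and 5 had a mean level below that of the median gene. In the blood and endothelium list (4.92 to 5.08 and 4.77 to 4.95) 1 of 7 fell, Gata2 (-0.67), and 6 of 7 were negative (median -0.11). The neural list (5.33 to 5.64 and 5.33 to 5.50) had 1 of 5 that fell, Nes (-0.58), and 3 of 5 negative (median -0.05). In the pluripotency list (9.31 to 9.56 and 9.60 to 9.63) 2 of 10 rose, Nanog (1.09) and Esrrb (0.56), and 0 fell. In that list 5 genes were negative and the median was 0.09; Pou5f1 and Dppa4 (-0.39 each) were lower in every Satb1-/- array than in any WT array, short of the threshold. Nanog, like Gata2, lies on chromosome 6, which held 74 higher and 20 lower genes among 1099 measured. The part of the marker genes in the values of the deacetylase genes was not tested.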

How the data were processed

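RNA of 6 samples, 3 WT and 3 Satb1-/-, was hybridised to 1-colour arrays. The authors deposited a log2 value for every probe set on each array, computed with RMA per the submitters' processing notes. The RMA settings and the array's genome build were not given in the sources used here. There were 35557 probe sets, of which 21789 had exactly 1 gene symbol, 1621 several and 12147 none; 19938 genes remained, 19856 of them matched by Entrez ID to RefSeq (GRCm38.p6), which gave gene order and chromosome. Groups were compared with limma 3.58.1 in R 4.3.3, by lmFit with eBayes and without covariates or a filter on level, with Benjamini-Hochberg adjustment over all genes and a threshold of 0.05. The fit was also run on simulated data with independent normal noise and the same SD in both groups. Its outcomes are not given here, so the share of small differences it would find is not stated. The larger SD in WT, seen for 68.4% of genes, and a shared origin of arrays were not simulated. The calls are therefore not checked against these features. The number of arrays limits the precision. Neighbours are the 10 measured genes on each side. All 10 members were named, with Satb1, the changed genes and the 2 largest differences of each partner list, and the 3 profiles nearest to the member with the smallest p. Members and lists were chosen with earlier results of these data known.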

Additional observations from a re-analysis of the deposited data

How the results depend on the processing

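In 14 alternatives, 8 of analysis and 6 that leave out 1 array, 0 of the 10 deacetylase genes passed the threshold in either direction. For 7 of them the direction was also the same in every alternative that gave a value; Hdac8, Hdac9 and Hdac11 fell out when only genes above the median level were tested. The exceptions were Hdac4 without WT replicate 3 (-0.057), Hdac5 with array weights (-0.00025), and Hdac11 with array weights (-0.017), without WT replicate 3 (-0.13) and without Satb1-/- replicate 1-1 (-0.01). Leaving out 1 array gave Hdac4 -0.06 to 0.20 and Hdac11 -0.13 to 0.15. Over all genes, 184 were higher and 95 lower. The counts were 373 and 235 with array weights, 90 and 27 with Satb1-/- replicates 1-1 and 1-2 averaged as 1 sample, and 68 and 15 with every probe set as a feature. Lower genes were 183 after a second quantile normalization (242 higher) and 47 with arrays shifted to a common median (159 higher). Leaving out 1 array gave 74 to 356 higher genes, the most without WT replicate 3, and 19 to 124 lower. The 3 changed partner genes became 0 to 4 higher and 0 to 4 lower over the alternatives. With every probe set as a feature, Satb1, Sinhcaf, Brd7 and Camk1d missed the threshold (limma adjusted p = 0.0526 to 0.177), and with the averaged Satb1-/- arrays Satb1, Brd7 and Camk1d did (0.11 to 0.155). The cause was not tested. No paired analysis was possible because the labels give no pairing between WT and Satb1-/- arrays. With 3 arrays a group, the 95% intervals of the members reached 0.23 to 0.37 to each side of the difference.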
